A study of Elodea nuttallii and Chlamydomonas reinhardtii with 18 samples.

Results

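Transcripts for antioxidant and thiol enzymes of Elodea nuttallii, a submerged freshwater waterweed, were followed in shoots held at 3 sites of the River Olt. A transcript was a member when the authors' deposited tables of changed transcripts described it with catalase, peroxidase, superoxide dismutase, peroxiredoxin, thioredoxin, glutaredoxin, dehydroascorbate or glutathione, in its product name or in the annotation terms after it. By this rule 90 of 58110 assembled transcripts were members, and they came from 50 of 37036 loci, a locus being a group of assembled transcripts with shared sequence. The product name matched in 82 of them, and in the other 8 the match lay only in the annotation terms. The deposited tables list 11717 transcripts and describe 5081 of these, so an enzyme whose transcripts were not listed or not described could not be a member. No description named superoxide dismutase, which says nothing of the level of that enzyme.

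The shoots compared were those placed at Babeni site 2, at Babeni site 1 and at Valcea, with 3 RNA-seq libraries per site. All 3 groups were wild shoots collected at a clean place, cut to the top 10 cm with the apex, and exposed in the river for 2 h. Every group had therefore been collected, moved and put in the river. The series title names mercury toxicity, but no mercury level of any site is given in the sources used here, nor the number of plants. Whether the 3 libraries per site stem from different plants is not stated in the labels, so standard errors and p-values measure only how far these libraries spread, and that spread may be technical.

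Aerobic cells make hydrogen peroxide and other reactive oxygen species, in leaves above all in chloroplasts, peroxisomes and mitochondria. Catalase breaks peroxide down in peroxisomes without a reductant, whereas ascorbate peroxidase, peroxiredoxins and glutathione peroxidases reduce it with electrons that come from ascorbate or from protein thiols. Thioredoxins, glutaredoxins and dehydroascorbate reductase pass those electrons on. Mercury binds thiols tightly, and plants conjugate foreign compounds to the thiol of glutathione through glutathione S-transferases.

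Levels are given in the CPM of the deposited table (reads scaled by a factor for each library), and differences in log2(CPM + 0.5), first-named site minus second, ± the standard error from limma. The scaled totals of the libraries are unequal. A transcript is said to have risen or fallen where it differed at least 2-fold and limma's p, adjusted by the Benjamini-Hochberg method over all tested transcripts, was below 0.05. This scale understates the differences of low transcripts. The members were selected on fold changes and false discovery rates that the authors had computed from the same libraries, so their differences and counts are a description of these libraries, carry no test of the group and support nothing. All 90 members passed the filter on low values. Both Babeni sites were compared with the same Valcea libraries, so the comparisons with Valcea are not independent.

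The libraries held 2875062 to 7824727 reads, with a median of 4875382, and those of Babeni site 2 were the deepest. At Valcea, 3 reads equalled 0.564 to 1.19 CPM. By chi-square per transcript, Valcea replicate 3 differed more from replicates 1 and 2 of its site (9.10 and 8.98) than any other pair of replicates did (2.00 to 4.58). On the log2 scale, it correlated at 0.918 with replicate 1 and 0.936 with replicate 2, beside 0.935 between replicates 1 and 2. Valcea replicate 3 was the lowest Valcea library for 47 members and the highest for 21. The 95 listed transcripts described as photosystem, chlorophyll-binding, Rubisco and similar green-tissue proteins had summed CPM of 4807 to 6085 at Babeni site 2, 8819 to 9826 at Babeni site 1 and 12441 to 17030 at Valcea. Of these 95, all of which were tested, 5 rose and 38 fell at Babeni site 2 relative to Valcea, and 21 rose and 23 fell at Babeni site 1, with median differences of -0.76 and 0.32. The 7 transcripts of Locus_27, photosystem II 22 kDa proteins, made up much of these sums: they had summed CPM of 1452 to 1795 at Babeni site 2, 3207 to 3382 at Babeni site 1 and 7107 to 9403 at Valcea. The other 88 transcripts had summed CPM of 3354 to 4290 at Babeni site 2, 5612 to 6546 at Babeni site 1 and 5334 to 7627 at Valcea, so that without this locus, which was singled out after its values were seen, Babeni site 1 and Valcea overlapped. The 5 listed expansin transcripts, the only match to a search of the product names for cuticle or expansin, had summed CPM of 19.03 to 27.1 at Babeni site 2, 9.03 to 19.3 at Babeni site 1 and 47.4 to 73.5 at Valcea, and 3 of them fell at each Babeni site. Both lists hold only transcripts that the authors had listed as changed between these libraries, so movement with the site was partly built in by the choice. Over all tested transcripts, 6.00% rose and 6.09% fell at Babeni site 2 relative to Valcea, and 4.17% and 4.90% at Babeni site 1. The part of these sums in the members' differences was not tested. In bulk shoots, fewer cells of a type and less RNA per cell cannot be told apart.

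Relative to Valcea, 24 members rose and 40 fell at Babeni site 2, where 6.00% and 6.09% of all 56752 tested transcripts did (12.1% changed). At Babeni site 1, 13 members rose and 28 fell relative to Valcea, against 4.17% and 4.90% of all tested transcripts (9.08% changed). Between Babeni site 2 and Babeni site 1, 10 members were higher at site 2 and 4 lower, against 1.55% and 1.63% of all tested transcripts (3.18% changed). Since the rule used these contrasts, nothing is read from the gap to the background. The members' median difference was -0.85 for Babeni site 2 minus Valcea, beside 0.05 over all tested transcripts. It was -0.76 beside 0.03 for Babeni site 1 minus Valcea, and -0.07 beside 0.02 for Babeni site 2 minus Babeni site 1.

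The direction of the calls varied by enzyme class, which is a description without a test of the classes. The ascorbate cycle (1 of 16 rose, 12 fell at Babeni site 2 relative to Valcea) and the peroxiredoxins (0 of 6 rose, 4 fell) were mostly lower there. Summed over all transcripts of a locus, only Locus_105, Locus_2783 and Locus_14312 of the ascorbate cycle fell at Babeni site 2. Members held 51.1% of the reads of Locus_105. Another listed transcript of that locus, which also fell there, is described as heat shock 70 kda protein 16-like. Members of Locus_2783 and Locus_14312 are named nectarin-3-like, and their place in the cycle rests on that description. Thioredoxins and their reductases moved both ways (11 of 24 rose, 11 fell), as did catalase (3 of 10 rose, 5 fell) and the other peroxidases (5 of 12 rose, 3 fell). Glutathione S-transferases passed in 1 of 7 at Babeni site 2, which fell, whereas 2 rose and 3 fell at Babeni site 1 relative to Valcea. At Babeni site 1, all 6 peroxiredoxins fell, 4 of the 16 ascorbate cycle members fell, and 5 thioredoxins rose while 7 fell. The site-to-site calls were spread over thioredoxins (5 higher at Babeni site 2), other peroxidases (4 higher), catalase (1 higher and 1 lower), and 1 lower member each of the ascorbate cycle, the glutaredoxins and the glutathione S-transferases.

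**Figure D1:**
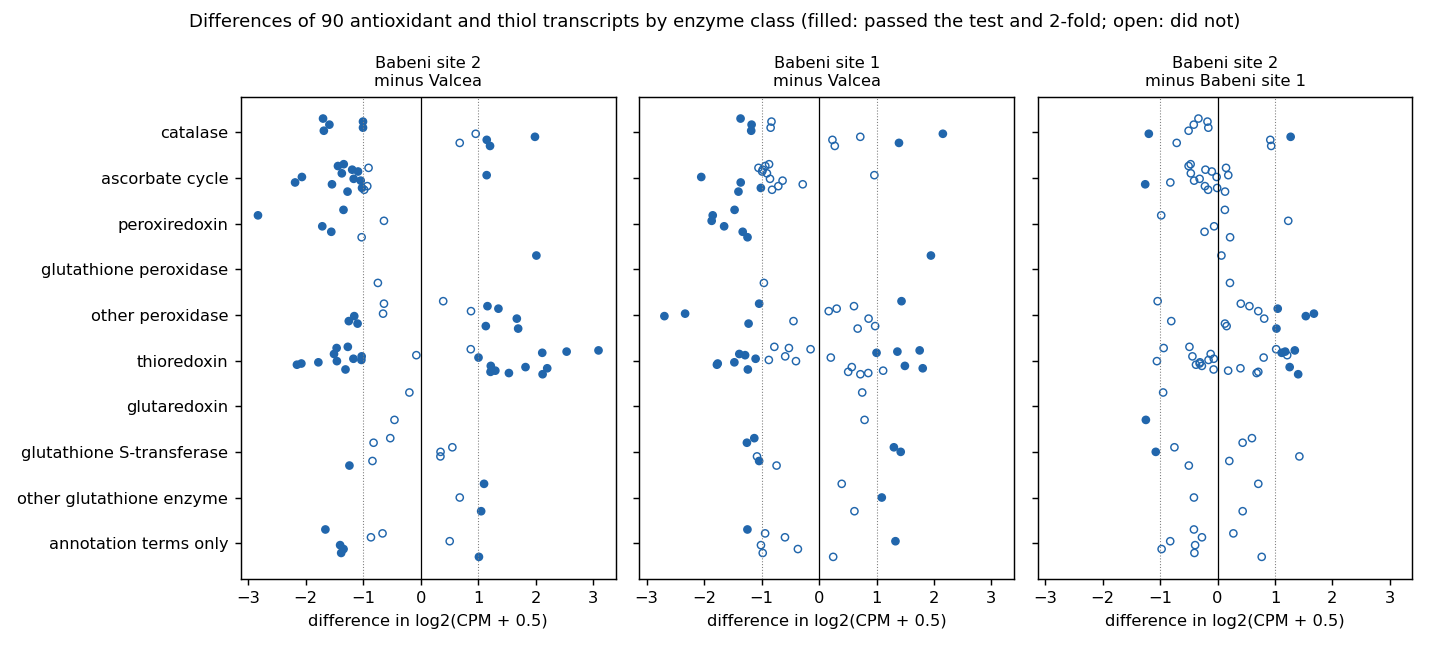
Difference of each of the 90 members in log2(CPM + 0.5), one panel per comparison, with enzyme classes down the page. Filled points passed the test and the 2-fold limit, open points did not, and dotted lines mark a 2-fold difference; the peroxiredoxins lie left of 0 against Valcea in both comparisons while the thioredoxins lie on both sides.

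Catalase, the peroxisomal enzyme that splits hydrogen peroxide into water and oxygen, was represented by 10 members of 2 loci, whose most abundant members moved in opposite directions. The most abundant member of Locus_209, Locus_209_Transcript_20_24_, had CPM values of 196, 216 and 209.9 at Babeni site 2, 259, 311 and 315 at Babeni site 1 and 606, 690.5 and 706 at Valcea. All 6 Babeni libraries lay below all 3 Valcea libraries, and the Babeni sites did not overlap with each other. Its difference was -1.68 ± 0.12 for Babeni site 2 minus Valcea and -1.18 ± 0.12 for Babeni site 1 minus Valcea, and it fell in both. A second transcript of the locus, Locus_209_Transcript_19_24_, had CPM values of 59.4, 55.6 and 57.3 at Babeni site 2, 63.96, 87.2 and 80.6 at Babeni site 1 and 179.9, 160.2 and 181 at Valcea. The catalase isozyme 1 transcript Locus_209_Transcript_15_24_ had CPM values of 17.1, 23.7 and 25.6 at Babeni site 2, 20.9, 31.9 and 31.4 at Babeni site 1 and 65.9, 77.9 and 72.1 at Valcea, and both of these also fell at each Babeni site relative to Valcea.

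The other catalase locus, Locus_9527, was higher at Babeni site 2. Its most abundant transcript, Locus_9527_Transcript_20_21_, had CPM values of 480.2, 403 and 429 at Babeni site 2, 244, 195 and 249.8 at Babeni site 1 and 181, 189.8 and 195 at Valcea. Every Babeni site 2 library was above every other library, while Babeni site 1 and Valcea differed little: the difference was 1.21 ± 0.12 for Babeni site 2 minus Valcea, 0.27 ± 0.12 for Babeni site 1 minus Valcea and 0.93 ± 0.12 between the Babeni sites, and the first passed. Locus_9527_Transcript_18_21_ followed the same order with CPM values of 235, 186 and 169 at Babeni site 2, 115, 90.8 and 105 at Babeni site 1 and 86.6, 90.9 and 85.4 at Valcea. The less abundant Locus_9527_Transcript_13_21_ had CPM values of 38.1, 34.05 and 34.9 at Babeni site 2, 14.9, 12.4 and 16.3 at Babeni site 1 and 8.74, 5.92 and 12.2 at Valcea, and it rose relative to Valcea and was higher than at Babeni site 1 (1.27 ± 0.21). A different order was seen in Locus_9527_Transcript_12_21_, which had CPM values of 1.17, 1.38 and 2.17 at Babeni site 2, 4.596, 4.01 and 3.87 at Babeni site 1 and 0.397, 0.947 and 0.376 at Valcea. Its highest libraries were those of Babeni site 1, where it rose relative to Valcea (2.15 ± 0.32). The call of lower at Babeni site 2 than at Babeni site 1 (-1.20 ± 0.32) was lost without replicate 1 or 2 of Babeni site 2 or without any 1 of the Babeni site 1 libraries.

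Because transcripts of a locus share sequence, the split of reads between them is uncertain, and the members of a locus are not independent of each other. Sums over all transcripts of a locus, listed or not, avoid the split. Locus_209 as a whole (11 transcripts) had 1306 ± 24.8 CPM at Babeni site 2, 1511 ± 146 CPM at Babeni site 1 and 1751 ± 150.1 CPM at Valcea (mean ± SD, n = 3 per site, as for all sums), and its difference of -0.42 ± 0.11 for Babeni site 2 minus Valcea was not past the limit. Its 5 listed transcripts had 306 ± 10.8 CPM at Babeni site 2, 422 ± 52.5 CPM at Babeni site 1 and 952 ± 58.9 CPM at Valcea, while its 6 unlisted transcripts had 1000.5 ± 31.6 CPM at Babeni site 2, 1089 ± 95.3 CPM at Babeni site 1 and 798 ± 95.9 CPM at Valcea. The listed transcripts therefore made up 23.4% at Babeni site 2, 27.9% at Babeni site 1 and 54.4% at Valcea of the locus. Locus_9527 as a whole (12 transcripts) had 788 ± 83.01 CPM at Babeni site 2, 459 ± 67.8 CPM at Babeni site 1 and 372 ± 32.5 CPM at Valcea, and its sum rose at Babeni site 2 relative to Valcea (1.08 ± 0.13). The share of Locus_9527 in the reads of both catalase loci was 40.1%, 35.5% and 37.1% at Babeni site 2, 27.7%, 19.6% and 22.9% at Babeni site 1 and 17.5%, 19.0% and 16.1% at Valcea, and the Babeni site 2 libraries lay apart from the rest. Both loci together had summed CPM of 2032 to 2203 at Babeni site 2, 1858 to 2094 at Babeni site 1 and 1951 to 2275 at Valcea, ranges that overlap.

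**Figure D2:**
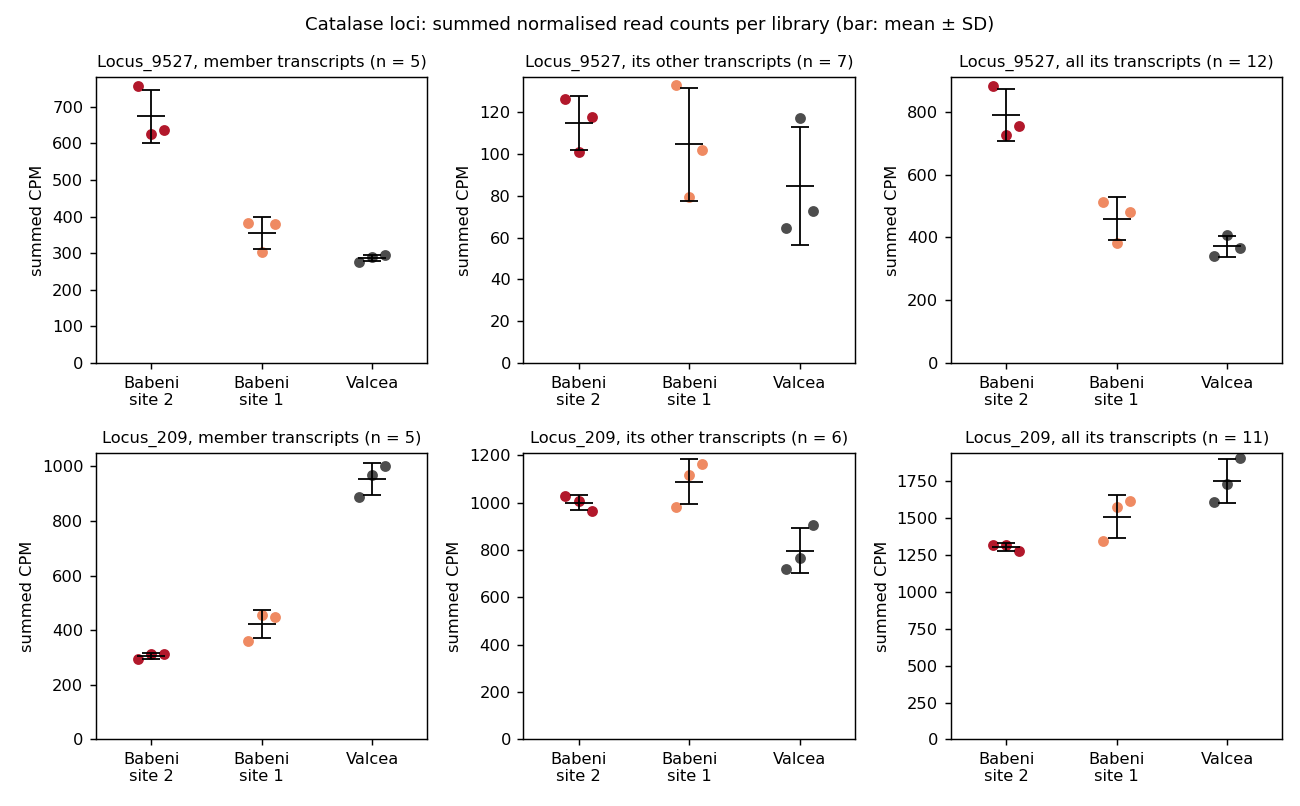
Summed CPM per library of Locus_9527 (top) and Locus_209 (bottom), split into member transcripts, the locus's other transcripts and all transcripts, with the mean ± SD of each site in the order Babeni site 2, Babeni site 1, Valcea. The member transcripts of Locus_209 average 306 CPM at Babeni site 2 and 952 CPM at Valcea, whereas all of its transcripts average 1306 CPM at Babeni site 2 and 1751 CPM at Valcea.

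Peroxiredoxins, thiol enzymes that reduce peroxides at a reactive cysteine, had 6 members from 3 loci, of which 4 fell at Babeni site 2 and 6 at Babeni site 1 relative to Valcea. Locus_1574_Transcript_1_2_, described as chloroplastic-like and the most abundant of them, had CPM values of 103, 85.99 and 114 at Babeni site 2, 98.05, 83.6 and 94.6 at Babeni site 1 and 239, 259 and 269 at Valcea. The Babeni libraries overlapped with each other and all lay below the Valcea libraries, with a difference of -1.34 ± 0.13 for Babeni site 2 minus Valcea and -1.47 ± 0.13 for Babeni site 1 minus Valcea. The other transcript of this locus, Locus_1574_Transcript_2_2_, had CPM values of 1.404, 2.13 and 4.19 at Babeni site 2, 5.17, 6.11 and 4.299 at Babeni site 1 and 25.02, 21.5 and 14.5 at Valcea and a larger difference of -2.83 ± 0.29 at Babeni site 2. Its sum with the first transcript fell at Babeni site 2 (-1.42 ± 0.12) and at Babeni site 1 (-1.50 ± 0.12). A peroxiredoxin-2E-type transcript, Locus_3602_Transcript_4_6_, named after a chloroplast form of the enzyme, had CPM values of 13.3, 15.5 and 21.2 at Babeni site 2, 20.3, 17.7 and 19.8 at Babeni site 1 and 57.2, 51.3 and 40.3 at Valcea. It also fell at both Babeni sites relative to Valcea, with differences of -1.55 ± 0.18 at site 2 and -1.33 ± 0.18 at site 1. The 2-cys type Locus_18132_Transcript_1_1_ had CPM values of 2.11, 3.13 and 2.89 at Babeni site 2, 0.766, 0.382 and 1.72 at Babeni site 1 and 1.59, 4.73 and 10.5 at Valcea; its fall at Babeni site 1 (-1.87 ± 0.47) was lost without replicate 2 of that site, and Valcea itself spread over a wide range.

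The ascorbate cycle removes peroxide with ascorbate peroxidase and returns oxidised ascorbate to use through monodehydroascorbate and dehydroascorbate reductases. Most of its members were lower at Babeni site 2 than at Valcea. Locus_2331_Transcript_17_19_, an ascorbate peroxidase transcript, had CPM values of 21.4, 17.6 and 23.7 at Babeni site 2, 28.1, 25.4 and 33.5 at Babeni site 1 and 61.2, 53.2 and 49.7 at Valcea. The Babeni sites differed from Valcea without overlap, and the difference of -1.37 ± 0.16 at Babeni site 2 passed, while that of -0.91 ± 0.16 at Babeni site 1 did not. This transcript held 10.6% of the reads of its locus, whose sum differed by -0.44 ± 0.11 at Babeni site 2 relative to Valcea and did not pass.

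A dehydroascorbate reductase transcript, Locus_2581_Transcript_5_10_, had CPM values of 0.819, 1.25 and 1.88 at Babeni site 2, 0.957, 0.763 and 2.58 at Babeni site 1 and 7.15, 7.57 and 6.02 at Valcea. It fell at both Babeni sites, with differences of -2.07 ± 0.34 at site 2 and -2.05 ± 0.34 at site 1, and the ranges of the Babeni sites overlapped. It carried 15.01% of its locus, whose sum fell at Babeni site 1 (-1.04 ± 0.22) but not at Babeni site 2 (-0.74 ± 0.22). The 3 dehydroascorbate reductase members of Locus_8910 differed by -0.98 to -1.27 at Babeni site 2 relative to Valcea. Of these, Locus_8910_Transcript_8_13_ and Locus_8910_Transcript_11_13_ fell, the call of the second being lost without replicate 1 or 3 of Babeni site 2 or replicate 1 of Valcea. In Locus_3717, 1 of 2 members fell at Babeni site 2 (-1.54 ± 0.34).

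The largest difference of the cycle at Babeni site 2 was in Locus_2783_Transcript_7_8_, whose description joins monodehydroascorbate reductase and carbonic anhydrase activity under the name of nectarin-3, a protein of tobacco nectar. This transcript had CPM values of 7.604, 12.02 and 10.97 at Babeni site 2, 14.9, 17.2 and 23.001 at Babeni site 1 and 48.4, 46.6 and 46.8 at Valcea, so that all libraries of a site were apart from those of the other sites and the order ran from Babeni site 2, the lowest, through Babeni site 1 to Valcea. It fell at Babeni site 2 (-2.18 ± 0.19) and at Babeni site 1 (-1.36 ± 0.19) relative to Valcea. A transcript of another locus with the same description, Locus_14312_Transcript_4_4_, had CPM values of 22.7, 22.8 and 23.4 at Babeni site 2, 23.7, 29.6 and 26.9 at Babeni site 1 and 54.8, 55.6 and 48.9 at Valcea and fell at Babeni site 2 (-1.19 ± 0.14). Another listed transcript of Locus_2783 is described as an alpha carbonic anhydrase, so its part in ascorbate recycling rests on the description alone. The 1 member of the cycle that rose, the chloroplast ascorbate peroxidase Locus_2497_Transcript_3_6_ (1.15 ± 0.38), held 3.34% of its locus, and its call was lost without replicate 3 of Babeni site 2, replicate 1 of Babeni site 1, or replicate 1 or 2 of Valcea.

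Glutathione peroxidases, which reduce peroxides with thiol electrons, had 2 members. The low-level Locus_13496_Transcript_1_1_ had CPM values of 1.87, 2.88 and 2.17 at Babeni site 2, 1.53, 2.099 and 3.01 at Babeni site 1 and 0.794, 0 and 0 at Valcea. Valcea had no read in replicates 2 and 3, and the transcript rose at Babeni site 2 (2.01 ± 0.40) and at Babeni site 1 (1.95 ± 0.40) relative to Valcea. With so few reads at Valcea the size of both differences depends on the pseudocount, and both calls were lost with a pseudocount of 2. The mitochondrial-like phospholipid hydroperoxide type Locus_962_Transcript_2_9_ passed in no comparison and held 0.819% of its locus.

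The other peroxidases are mostly named after secreted plant peroxidases, haem enzymes that use peroxide in the cell wall, for example to couple lignin units. Of these 12 members, 5 rose and 3 fell at Babeni site 2, and 1 rose and 4 fell at Babeni site 1, relative to Valcea. Locus_1537_Transcript_11_14_, the most abundant member per length at 407 CPM per kb over the 9 libraries, had CPM values of 735, 648 and 836 at Babeni site 2, 531, 466 and 506 at Babeni site 1 and 359.8, 340.04 and 289 at Valcea. The sites were separated in this order without overlap, and the rise of 1.16 ± 0.13 at Babeni site 2 relative to Valcea passed. The whole locus of 10 transcripts had 1161 ± 159 CPM at Babeni site 2, 907 ± 38.5 CPM at Babeni site 1 and 882 ± 92.4 CPM at Valcea, with a difference of 0.39 ± 0.12 at Babeni site 2, which did not pass. Its 7 unlisted transcripts had 409 ± 64.9 CPM at Babeni site 2, 399.6 ± 11.3 CPM at Babeni site 1 and 547 ± 55.5 CPM at Valcea, the reverse order of Babeni site 2 and Valcea.

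Both peroxidases that were abundant and the only transcript of their locus in the table showed the same order. Locus_9374_Transcript_2_3_, a peroxidase 52-like transcript, had CPM values of 99.8, 98.1 and 119.98 at Babeni site 2, 55.5, 48.7 and 50.7 at Babeni site 1 and 26.6, 33.6 and 37.3 at Valcea. It rose at Babeni site 2 relative to Valcea (1.70 ± 0.14) and was higher than at Babeni site 1 (1.03 ± 0.14), a call that was lost without replicate 3 of Babeni site 2 or replicate 2 of Babeni site 1. Locus_1874_Transcript_1_1_, named a lignin biosynthetic peroxidase, had CPM values of 101, 117 and 194 at Babeni site 2, 79.3, 57.2 and 93.3 at Babeni site 1 and 45.3, 47.1 and 32.5 at Valcea. It rose at Babeni site 2 (1.67 ± 0.22), and the libraries of Babeni site 1 were between the other sites.

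A pair of peroxidase 27-like transcripts, both of Locus_15511, was lowest at Babeni site 1. The first, Locus_15511_Transcript_1_2_, had CPM values of 2.69, 3.88 and 1.59 at Babeni site 2, 0.383, 0.382 and 0.645 at Babeni site 1 and 3.18, 6.15 and 4.14 at Valcea. All 3 libraries of Babeni site 1 were below 1 CPM and below all other libraries, with passing differences of -2.33 ± 0.33 relative to Valcea and 1.68 ± 0.33 for Babeni site 2 minus Babeni site 1. The second, Locus_15511_Transcript_2_2_, had CPM values of 1.64, 1.75 and 1.44 at Babeni site 2, 0, 0.572 and 0.215 at Babeni site 1 and 5.96, 2.37 and 5.08 at Valcea, and it fell at Babeni site 1 relative to Valcea (-2.69 ± 0.37). Its fall at Babeni site 2 relative to Valcea (-1.15 ± 0.37) was lost without any 1 library of Babeni site 2 or without replicate 1 or 3 of Valcea, and its higher level at Babeni site 2 than at Babeni site 1 (1.54 ± 0.37) without any 1 library of Babeni site 2 or without replicate 1 or 3 of Babeni site 1. A peroxidase 27-like member of another locus, Locus_3916_Transcript_4_6_, rose at Babeni site 2 relative to Valcea, a call lost without Valcea replicate 2. The sum of Locus_3916 also rose at Babeni site 2 (1.11 ± 0.23) but did not pass at Babeni site 1 (0.85 ± 0.23). One further member of the class, Locus_3748_Transcript_1_5_, is described as an acid phosphatase related to vanadium-dependent haloperoxidases and belongs to another enzyme family.

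Thioredoxins are small proteins that reduce disulfides of target enzymes through a pair of cysteines, and in chloroplasts ferredoxin-thioredoxin reductase supplies their electrons. Locus_11899, described as thioredoxin h, a mainly cytosolic type, held the largest rises. Locus_11899_Transcript_4_6_ had CPM values of 12.98, 11.8 and 12.1 at Babeni site 2, 5.36, 5.15 and 4.94 at Babeni site 1 and 1.19, 2.13 and 1.88 at Valcea. No library of one site reached the range of another, and the transcript rose at Babeni site 2 (2.54 ± 0.22) and Babeni site 1 (1.36 ± 0.22) relative to Valcea and was higher at Babeni site 2 than at Babeni site 1 (1.18 ± 0.22). Locus_11899_Transcript_3_6_, from the same locus, had CPM values of 4.796, 7.89 and 7.65 at Babeni site 2, 3.45, 2.29 and 1.505 at Babeni site 1 and 0.397, 0.237 and 0.376 at Valcea and the largest rise of all named members relative to Valcea (3.10 ± 0.32). At Valcea, 1 read equalled 0.188 to 0.397 CPM, so the size of this rise depends on the pseudocount. Its higher level at Babeni site 2 than at Babeni site 1 was lost without replicate 2 or 3 of Babeni site 2 or replicate 3 of Babeni site 1. The summed locus had 32.4 ± 1.62 CPM at Babeni site 2, 13.4 ± 1.36 CPM at Babeni site 1 and 5.34 ± 0.741 CPM at Valcea and passed in all comparisons. A member of another locus, the thioredoxin h-type 5 Locus_14813_Transcript_3_5_, fell at Babeni site 2 relative to Valcea. That call was lost without replicate 1 or 2 of Babeni site 2 or replicate 2 of Valcea. The sum of Locus_14813 had 29.1 ± 11.3 CPM at Babeni site 2 and 38.8 ± 2.95 CPM at Valcea (-0.47 ± 0.20). It passed in no comparison.

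Of the remaining thioredoxins that rose, Locus_6106_Transcript_3_4_, an atypical Cys His rich thioredoxin 4, had CPM values of 2.46, 3.76 and 3.03 at Babeni site 2, 1.91, 1.34 and 3.87 at Babeni site 1 and 0.397, 0.237 and 0.188 at Valcea. Its highest Valcea library had 0.397 CPM, and it rose at Babeni site 2 (2.20 ± 0.35) and Babeni site 1 (1.80 ± 0.35). The size of both differences depends on the pseudocount, and the call at Babeni site 1 was lost with a pseudocount of 2. Locus_7565_Transcript_4_6_, a CXXS1-like thioredoxin protein, had CPM values of 4.33, 9.39 and 7.22 at Babeni site 2, 1.53, 2.29 and 3.01 at Babeni site 1 and 1.59, 0.473 and 1.69 at Valcea and rose at Babeni site 2 relative to Valcea (2.12 ± 0.36). In Arabidopsis, atypical Cys His rich thioredoxins are plastid proteins.

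Transcripts of the chloroplast route, by name or by the known place of the enzyme, included members that fell and members that rose. The ferredoxin-thioredoxin reductase catalytic chain Locus_12620_Transcript_3_3_, the only transcript of its locus in the table, had CPM values of 20.1, 16.8 and 20.8 at Babeni site 2, 21.8, 19.5 and 21.3 at Babeni site 1 and 52.02, 59.9 and 54.4 at Valcea. The Babeni sites overlapped with each other and lay below Valcea, with passing differences of -1.51 ± 0.14 at Babeni site 2 and -1.39 ± 0.14 at Babeni site 1. A second reductase locus fell at Babeni site 2 in both of its members, the larger difference being -1.46 ± 0.18 in Locus_10279_Transcript_5_6_. The thioredoxin-like chloroplastic-like transcript Locus_5723_Transcript_2_5_ had CPM values of 10.6, 10.5 and 13.6 at Babeni site 2, 13.4, 15.5 and 14.2 at Babeni site 1 and 41.3, 43.1 and 37.8 at Valcea and fell at both Babeni sites (-1.78 ± 0.15 and -1.47 ± 0.15). All 3 members of its locus did so, and the locus sum had 21.4 ± 1.23 CPM at Babeni site 2, 26.995 ± 3.398 CPM at Babeni site 1 and 86.3 ± 8.48 CPM at Valcea. The 2 members of thioredoxin f, a chloroplast form that activates enzymes of carbon fixation, fell at Babeni site 2 (-1.03 ± 0.20 and -1.46 ± 0.43); the first call was lost without Valcea replicate 1 and the second without any of 3 libraries (Babeni site 2 replicate 1 or 3, Valcea replicate 2). Among those that rose, the thioredoxin-like 1 chloroplastic-like transcript Locus_5734_Transcript_7_8_ had CPM values of 4.09, 4.76 and 4.48 at Babeni site 2, 1.72, 1.72 and 1.29 at Babeni site 1 and 0.794, 0.947 and 0.941 at Valcea, a rise of 1.83 ± 0.27 at Babeni site 2 relative to Valcea. In Locus_14983, named thioredoxin-like 3, 1 transcript rose at Babeni site 2 (1.01 ± 0.34) and another fell (-1.17 ± 0.33). The rise was kept only without replicate 1 of Valcea and lost without any other 1 of the 9 libraries, the fall was lost without replicate 1 or 2 of Babeni site 2 or replicate 1 of Valcea, and the locus sum did not pass (-0.39 ± 0.23).

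**Figure D3:**
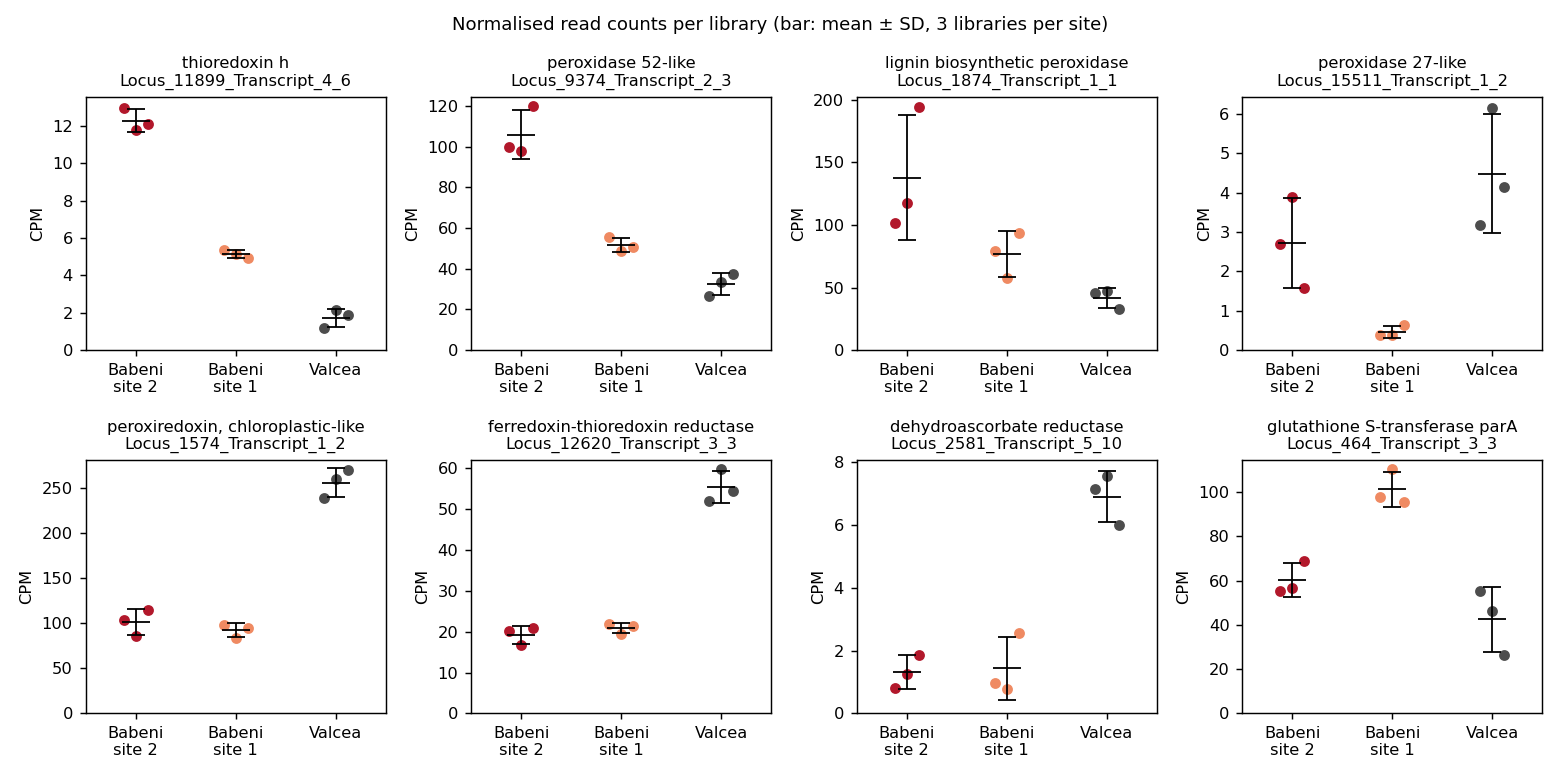
CPM per library of 8 members, one panel each, with sites in the order Babeni site 2, Babeni site 1, Valcea and bars at the mean ± SD of the 3 libraries of a site. The thioredoxin h of Locus_11899 and peroxidase 52-like step down from Babeni site 2 through Babeni site 1 to Valcea, peroxiredoxin and ferredoxin-thioredoxin reductase are low at both Babeni sites, and the glutathione S-transferase parA is highest at Babeni site 1.

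Glutaredoxins, which use glutathione to reduce disulfides, were represented by Locus_556. Locus_556_Transcript_4_6_ had CPM values of 4.45, 5.13 and 5.197 at Babeni site 2, 11.3, 13.4 and 12.5 at Babeni site 1 and 6.75, 6.86 and 7.15 at Valcea. Its highest libraries were those of Babeni site 1, and it was lower at Babeni site 2 than at Babeni site 1 (-1.25 ± 0.18), while no difference from Valcea passed.

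Glutathione S-transferases add glutathione to foreign and oxidised compounds. Some of them were highest at Babeni site 1. The parA-type Locus_464_Transcript_3_3_, named after an auxin-responsive tobacco gene, had CPM values of 55.2, 56.5 and 68.9 at Babeni site 2, 97.7, 110.3 and 95.7 at Babeni site 1 and 55.2, 46.1 and 26.3 at Valcea. All libraries of Babeni site 1 were above those of the other sites, and its rise there relative to Valcea (1.30 ± 0.20) was lost without Valcea replicate 3. The chloroplastic-like Locus_6801_Transcript_3_6_ had CPM values of 3.39, 5.01 and 5.05 at Babeni site 2, 8.04, 12.02 and 9.89 at Babeni site 1 and 3.18, 3.55 and 3.39 at Valcea and showed the same order, with a rise at Babeni site 1 relative to Valcea (1.42 ± 0.22). Its lower level at Babeni site 2 than at Babeni site 1 (-1.07 ± 0.22) was lost without replicate 1 of Babeni site 2 or replicate 2 of Babeni site 1. In the sum of its locus, neither Babeni site differed from Valcea past the limit (0.30 ± 0.18 and 0.29 ± 0.18).

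Locus_3805 went the other way. Locus_3805_Transcript_3_3_ had CPM values of 28.3, 22.7 and 25.8 at Babeni site 2, 19.9, 16.6 and 19.8 at Babeni site 1 and 50.04, 51.8 and 35.9 at Valcea and fell at Babeni site 1 relative to Valcea (-1.26 ± 0.16). Locus_3805_Transcript_2_3_ also fell there (-1.13 ± 0.17), a call that was lost without Babeni site 1 replicate 2. A microsomal type, Locus_8963_Transcript_4_7_, had CPM values of 6.902, 7.76 and 10.7 at Babeni site 2, 13.4, 9.54 and 13.3 at Babeni site 1 and 21.4, 22.5 and 17.3 at Valcea and fell at Babeni site 2 relative to Valcea (-1.24 ± 0.20). This transcript held 32.6% of its locus, whose sum did not pass at Babeni site 2 (-0.88 ± 0.17).

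Among the other glutathione enzymes, lactoylglutathione lyase, which removes methylglyoxal, was highest at Babeni site 2. Locus_7029_Transcript_2_2_ had CPM values of 37.6, 33.7 and 38.8 at Babeni site 2, 28.3, 23.7 and 29.02 at Babeni site 1 and 19.5, 17.3 and 15.6 at Valcea, and the sites did not overlap. Its rise at Babeni site 2 relative to Valcea (1.05 ± 0.15) was lost without Valcea replicate 3. Locus_12404_Transcript_1_4_, described as hydroxyacylglutathione hydrolase, an enzyme of the same detoxification route, rose at Babeni site 1 (1.09 ± 0.32). This call was lost without any 1 of 5 libraries, namely those of Babeni site 1 and replicates 1 and 2 of Valcea. The other transcript of its locus is described as a persulfide dioxygenase, so its place in this route rests on the description alone. The locus sum rose at Babeni site 1 (1.43 ± 0.29). The rise of Locus_1165_Transcript_4_8_ at Babeni site 2 (1.10 ± 0.36) was lost without any 1 of the Babeni site 2 libraries or without Valcea replicate 1 or 2.

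The 8 members matched by annotation terms alone belong to 4 loci. Among them, Locus_12404_Transcript_3_4_, described as a mitochondrial-like persulfide dioxygenase, rose at Babeni site 1. That call was lost without replicate 1 or 3 of Babeni site 1 or replicate 2 or 3 of Valcea. The 3 transcripts described as 5'-adenylylsulfate reductase, the enzyme that reduces activated sulfate on the way to cysteine, fell at Babeni site 2 relative to Valcea, with differences of -1.40 ± 0.46, -1.34 ± 0.41 and -1.38 ± 0.44, and their locus had 0.7603 ± 0.218 CPM at Babeni site 2, 2.28 ± 1.33 CPM at Babeni site 1 and 4.37 ± 0.471 CPM at Valcea. Each of these calls was lost without replicate 1 or without replicate 2 of Babeni site 2. The gamma-glutamyltranspeptidase Locus_11244_Transcript_3_8_, which removes the glutamyl group of glutathione, fell at Babeni site 2 (-1.66 ± 0.38), and 2 further members of its locus passed in no comparison. The sum of Locus_11244 did not pass at Babeni site 2 (-0.74 ± 0.17). A glutamine amidotransferase, Locus_5126_Transcript_3_3_, had CPM values of 9.94, 11.5 and 8.81 at Babeni site 2, 5.36, 6.11 and 5.59 at Babeni site 1 and 7.55, 4.02 and 3.39 at Valcea and rose at Babeni site 2 (1.02 ± 0.25), a call lost without Babeni site 2 replicate 2 or Valcea replicate 2 or 3.

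Across all members, site means followed 4 orders. Babeni site 1 lay between the other sites in 63 members, with Babeni site 2 the highest in 24 of them and the lowest in 39. It was the highest in 10 and the lowest in 17. The share of these orders over all tested transcripts was not computed. Since 71 members were listed for a difference between Babeni site 2 and Valcea, nothing is read from the orders. Of the 90 members, 29 had all Babeni site 2 libraries above all Valcea libraries, 49 had them all below and 12 overlapped, where 18.4% and 17.5% of all tested transcripts were all above and all below. For Babeni site 1 and Valcea the counts were 25 above, 45 below and 20 overlapping, against 15.4% and 15.6% of all tested transcripts. Between the Babeni sites, 25 were all above at site 2, 21 all below and 44 overlapped, against 12.1% and 11.8%.

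A call in 1 comparison with Valcea and not in the other does not show that the Babeni sites differ. In the 10 members that passed in none of the 3 comparisons, the largest absolute difference of a member ran from 0.86 to 1.42.

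Members whose product name contains chloroplast (23 of the 90 transcripts, of 12 loci) included 3 that rose and 16 that fell at Babeni site 2 relative to Valcea. Of the 67 members whose product name does not contain it, 21 rose and 24 fell. At Babeni site 1, 1 of the chloroplast-named members rose and 11 fell, and of the others 12 rose and 17 fell. A wider grouping took in the 42 members whose product name or annotation terms name a plastid or a part of one. Of these 42, 8 rose and 23 fell at Babeni site 2, and 5 rose and 17 fell at Babeni site 1. Of the remaining 48, 16 rose and 17 fell at Babeni site 2, and 8 rose and 11 fell at Babeni site 1. Both groupings were made after the values were seen and were not tested. All of these members were listed for differences between the same libraries, so the counts are a description. Beside them stand 6.00% rising and 6.09% falling at Babeni site 2 over all tested transcripts, and 4.17% and 4.90% at Babeni site 1. The green-tissue sums given above were lower at Babeni site 2 than at Valcea with and without Locus_27, while without it those of Babeni site 1 and Valcea overlapped.

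Levels among members spanned a wide range. The mean over the 9 libraries was at least 20 CPM in 19 members, 2 to 20 CPM in 43 and under 2 CPM in 28. Per length, the peroxidase of Locus_1537 (407 CPM per kb), the lignin biosynthetic peroxidase (231), the peroxiredoxin of Locus_1574 (216) and the main catalases of Locus_209 (146) and Locus_9527 (133) stood at the top. Assembled lengths ran from 172 to 2662 bp with a median of 1040 bp.

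Of the 64 members called at Babeni site 2 relative to Valcea, 42 had a locus sum with the same call, 22 had a sum that did not pass and none had a sum of the opposite call. For Babeni site 1 relative to Valcea the figures were 27, 14 and 0 of 41, and between the Babeni sites 7, 7 and 0 of 14. Members held under 20% of their locus's reads in 39 cases and at least 80% in 15. Summed over loci, 11 of 50 rose and 13 fell at Babeni site 2 relative to Valcea (6.45% and 6.06% of all 36309 tested loci), 7 rose and 11 fell at Babeni site 1 (4.23% and 5.02%), and 3 were higher and 1 lower at Babeni site 2 than at Babeni site 1 (1.82% and 1.61%). The member loci hold 173 transcripts in all. Of these, 6 are listed without a description that matches the rule, among them Locus_2581_Transcript_6_10_, which fell at both Babeni sites relative to Valcea. Of the 77 that are not listed, 74 were tested and none rose or fell in any comparison. The authors had not called them changed in these same libraries, so this outcome was largely fixed in advance and nothing is read from it. Just outside the lists, 2 of these 74 reached a 2-fold difference in some comparison, the largest being 1.06 in Locus_3916_Transcript_5_6_ for Babeni site 2 minus Valcea, which did not pass, and the median of their largest absolute differences was 0.49.

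**Figure D4:**
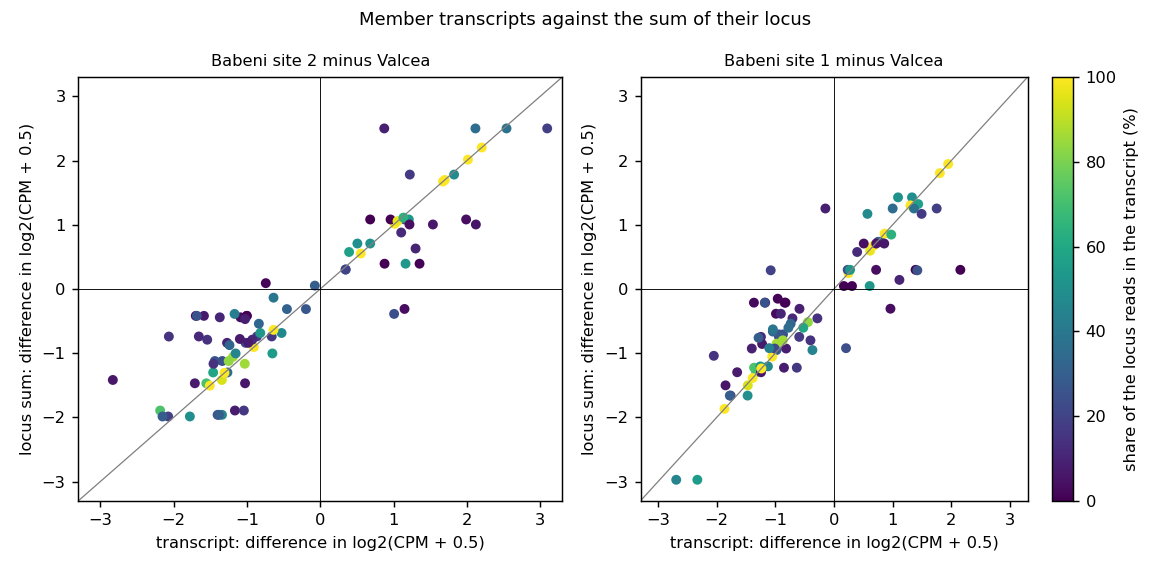
Difference of each member (horizontal axis) and of the sum of all transcripts of its locus (vertical axis), both in log2(CPM + 0.5), with a panel for each Babeni site minus Valcea, a diagonal of equal differences, and colour giving the share of the locus reads that the member holds. The chloroplast ascorbate peroxidase of Locus_2497, with 3.34% of its locus, lies at 1.15 ± 0.38 against -0.31 ± 0.15 for its locus in Babeni site 2 minus Valcea.

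The listing itself had a fold and a false discovery rate limit. In the authors' deposited table of Babeni site 1 over Babeni site 2, the smallest fold among members was -1.04 in log2 (Locus_9374_Transcript_2_3_), with the direction opposite to the one used here. In the authors' deposited table of Babeni site 1 over Valcea it was -1.02 (Locus_8910_Transcript_11_13_), and in the authors' deposited table of Babeni site 2 over Valcea -1.015 (Locus_8910_Transcript_12_13_). The highest false discovery rates of listed members were 0.0476, 0.0488 and 0.0411 in these authors' deposited tables, in the same order. Of the members listed for Babeni site 2 against Valcea, 64 of 71 passed here, as did 41 of 47 for Babeni site 1 against Valcea and 14 of 21 between the Babeni sites. No member passed in a comparison in which it was not listed.

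Other redox genes that the rule leaves out, 70 listed transcripts of 39 loci of which 68 were tested, moved both ways. At Babeni site 2 relative to Valcea 25 rose and 22 fell, at Babeni site 1 relative to Valcea 10 rose and 13 fell, and 1 was higher and 6 lower at Babeni site 2 than at Babeni site 1. These transcripts were listed by the authors for differences between the same libraries, so their counts too are a description, beside 6.00% rising and 6.09% falling at Babeni site 2 and 4.17% and 4.90% at Babeni site 1 over all tested transcripts. The kinds that follow were set after the values were seen. Protein disulfide isomerases form and rearrange disulfides in the endoplasmic reticulum. Of their 13 transcripts, 11 (of 6 loci) rose at Babeni site 2 and 2 (of 1 locus) at Babeni site 1, and none fell. Locus_13096_Transcript_5_7_ had CPM values of 30.1, 29.3 and 24.8 at Babeni site 2, 19.3, 16.98 and 14.4 at Babeni site 1 and 6.75, 4.26 and 6.02 at Valcea, a rise of 2.23 ± 0.19 at Babeni site 2. Of 13 transcripts for ascorbate synthesis, 10 (of 5 loci) fell at Babeni site 2. At Babeni site 1, 4 fell, all of them of 1 locus, Locus_5466. The GDP-mannose epimerase Locus_5466_Transcript_12_13_ had CPM values of 31.7, 37.2 and 46.5 at Babeni site 2 and 32.7, 44.3 and 38.5 at Babeni site 1. At Valcea its values were 147, 151 and 128, and its difference of -1.89 ± 0.16 at Babeni site 2 passed.

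Ascorbate oxidase, a cell wall enzyme that consumes ascorbate, rose in 6 of 8 transcripts at Babeni site 2, 5 of them of Locus_880, and fell in none. At Babeni site 1, 4 of the 8 rose, all of them of Locus_880, and Locus_1197_Transcript_6_9_ (-1.35 ± 0.39) and Locus_439_Transcript_15_17_ (-1.06 ± 0.28) fell. Locus_880_Transcript_14_17_ had CPM values of 12.9, 9.89 and 14.3 at Babeni site 2, 7.28, 6.68 and 6.45 at Babeni site 1 and 2.38, 1.89 and 2.07 at Valcea, with a rise of 2.29 ± 0.21 at Babeni site 2 and 1.48 ± 0.21 at Babeni site 1. Methionine sulfoxide reductases repair oxidised methionine. They fell in 4 of 5 transcripts (2 loci) at Babeni site 2 and in 3 of 5 (1 locus) at Babeni site 1. The chloroplast form Locus_9249_Transcript_5_6_ had CPM values of 21.4, 22.03 and 25.1 at Babeni site 2, 29.1, 28.2 and 33.5 at Babeni site 1 and 67.9, 87.6 and 87.7 at Valcea, and its differences of -1.80 ± 0.14 at Babeni site 2 and -1.40 ± 0.14 at Babeni site 1 relative to Valcea both passed. Peroxisome-named transcripts other than catalase rose in 8 of 21 and fell in 4 at Babeni site 2, and rose in 4 and fell in 2 at Babeni site 1. Of the 8 that rose at Babeni site 2, 5 are described as acyl-coenzyme A oxidases, the first enzyme of fatty acid breakdown there.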

How the data were processed

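RNA from Elodea nuttallii shoots was sequenced after stranded mRNA library preparation, per the labels' protocols. The tools named per the submitters' processing notes, without their roles, are edgeR 3.4.2, HTSeq 0.5.3p9, TopHat2 2.0.11 and BWA 0.7.10, and the reference is not given in the sources used here. The deposited table holds a scaled signal per assembled transcript, called CPM here as in its name, whose library totals are unequal. Dividing by the smallest step of each library gave whole reads, within 0.01, for 100% of values. The deposited tables also give the authors' log2 fold changes and adjusted p-values (false discovery rates), used to find members and, where named, quoted. No per-sample column was left unused (0).

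The planned test was kept although the unit proved to be a scaled signal. limma 3.58.1 (R 4.3.3), with a mean trend, was run on log2(CPM + 0.5) for transcripts that reached 1 CPM in 3 or more of the 9 libraries, with 1 shared spread over the 3 sites. The analysis was tested on simulated data. P-values were adjusted over all 56752 tested transcripts by the Benjamini-Hochberg method. Members and lists were chosen with earlier results of these data known. Members named by rule were the most abundant of each class, those with the largest difference in each comparison (at least 2 CPM), those of at least 20 CPM, and those of loci moving both ways. The rule took in 40 members, and others were named after their values were seen. Alternatives were pseudocounts of 0.1 and 2, filters, median centring, DESeq2 1.42.0 and edgeR 4.0.16 run on the whole reads, the compared sites alone, a replicate block, single libraries left out, and locus sums.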

Additional observations from a re-analysis of the deposited data

How the results depend on the processing

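Counts of members are given as higher and lower in the first-named site. A pseudocount of 2 left 14 and 20 for Babeni site 2 against Valcea, 3 higher for Babeni site 1 against Valcea, and 3 and 1 between the Babeni sites. A minimum of 5 CPM left 12 higher, then 4 and 18, and 5 and 2 in those comparisons. Locus sums, which count loci, gave 11 and 13, 7 and 11, and 3 and 1. DESeq2 gave 8 higher for Babeni site 1 against Valcea, and a pseudocount of 0.1 gave 2 lower between the Babeni sites. Leaving out 1 library gave 17 to 23 and 28 to 41, 9 to 13 and 23 to 31, and 5 to 11 and 1 to 4. The cause was not tested, but a higher pseudocount shrinks low values and a higher minimum removes transcripts. Replicate numbers did not pair the libraries (r -0.156 to 0.0577 over 9 same-numbered pairs). The replicate block gave 21 and 39, 13 and 28, and 11 and 2. Of 2117 differences of the 40 members named by rule under alternatives, 1995 kept their side of the limit, 100 lost the call and 22 gained one. Where either setting gave a call, 0 changed sign. A change of sign without a call in either setting is counted among the 1995. Calls kept without each single library were 38 of 64, 25 of 41 and 4 of 14. Over all tested transcripts, 6861, 5151 and 1805 changed with limma, 3313, 2069 and 1054 with a pseudocount of 2, 3308, 2436 and 1104 with a minimum of 5 CPM, and 5333, 3326 and 1486 with DESeq2. Depth limits members under 2 CPM, since 3 reads equal up to 1.19 CPM.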
